A study of Drosophila melanogaster with 15 samples.

Results

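The genes of the vacuolar proton pump (V-ATPase) were taken as every entry of the deposited table whose symbol begins with Vha. This gave 24 of the 12133 entries. The annotation holds 33 Vha genes, and the 9 without an entry (*Vha100-3*, *Vha14-2*, *Vha16-2*, *Vha16-3*, *Vha16-4*, *Vha16-5*, *Vha36-2*, *VhaM9.7-d* and *VhaPPA1-2*) were not analysed here. The 24 genes were described as 14 broadly used subunit genes, 1 for each subunit, and 10 further genes for the same subunits, among them *Vha100-4*. This division follows general knowledge of the family, since use across tissues was not measured in these libraries.

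The transcripts were counted in midguts of *w1118* larvae, a white-eyed laboratory strain, all raised on a diet of yeast only. Groups were early L2, late L2 and early L3 larvae, dissected at 2, 3 and 4 days, with 5 biological replicates each. A replicate pooled 60 midguts at early L2, 30 at late L2 and 10 at early L3, from larvae of undetermined sex hatched from an overnight egg laying. No group carried another mutation, transgene or treatment, and whole midguts were used, so all regions and cell types of the organ were mixed.

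The V-ATPase is a rotary machine. Its cytosolic V1 sector hydrolyses ATP and turns a central stalk, and the rotation drives protons through the membrane-embedded Vo sector, where the ring of c subunits moves against subunit a. The pump acidifies lysosomes and endosomes in all cells, and in the fly midgut it also serves the copper cells, which secrete acid into the lumen. In *Drosophila* most subunits are encoded by a broadly used gene and by additional genes, several of which are known mainly from single tissues such as the testis.

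Levels are CPM, the reads of a gene scaled to the total reads of its library, and are given as mean ± SD over n = 5 replicates per stage where no other form is stated. Library totals ranged from 23981806 to 33902298 reads. Changes were tested with limma on log2(CPM + 0.5), a scale that understates the change of transcripts near or below 0.5 CPM. Rises and falls were called where the adjusted p was under 0.05 and the log2 fold change reached 0.5 in size. All 9 midgut markers were detected (5947 to 11157 CPM summed over the list in each library). Of the lists for other tissues, muscle markers summed to 2731 to 5110 CPM, those of trachea to 33.7 to 159 CPM, those of neurons to 8.10 to 19.4 CPM and those of testis and germline to 0.301 to 1.24 CPM. The fat body list reached 114 CPM in late L2 and 113 CPM in early L3, against at most 0.0417 CPM in early L2. Of the Malpighian tubule list 8 of 9 genes had an entry, and they summed to 193 to 247 CPM. Among them *CapaR*, *Irk2* and *Irk3* stayed below the filter. Of the 5 tested, only *Drip* was called into early L3 in CPM, as fallen (log2 fold change -0.58). *Irk1* (0.28) and *Lkr* (0.43) had positive values and *ClC-a* (-0.03) and *tsh* (-0.19) negative ones. With TMM or median-ratio scaling 1 of the 5 rose into early L3 and 0 fell. The part of tubule cells in the Vha levels was not tested. Of the salivary gland list 1 of 5 genes had an entry, with at most 0.102 CPM. On the first principal component of all transcripts early L3 stood apart from both L2 stages, with early L3 replicate 1 and late L2 replicate 4 the nearest libraries across that gap. Late L2 replicate 2 lay within the range of early L2, and without it *Vha68-1* and *VhaAC45RP* were still called as fallen during L2.

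The 14 broadly used genes were all abundant, and their transcripts kept close levels over the 3 stages. Together the 24 Vha genes took 1.52 ± 0.0387% of all reads at early L2, 1.48 ± 0.0440% at late L2 and 1.46 ± 0.0251% at early L3, and the 10 further genes took only 0.0810 ± 0.00360%, 0.0762 ± 0.00104% and 0.0800 ± 0.00216% of reads at these stages. Fewer cells of a type and less RNA per cell cannot be told apart in such bulk libraries, here or for any transcript below. To compare genes with each other, CPM were divided by the length of each gene's annotated exons in kb. On this scale *Vha16-1*, which encodes the c subunit of the proton-carrying ring, stood highest at 1158 CPM per kb (mean of 15 libraries), above every library's value for any other Vha gene. *Vha68-2*, the catalytic A subunit, followed at 787 CPM per kb and *Vha13*, the G subunit of the peripheral stalk, at 754 CPM per kb, and the ranges of these 2 genes overlapped. *Vha55*, the B subunit, came next at 586 CPM per kb and overlapped with neither neighbour in the order.

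The middle of the order held *Vha26* (subunit E of the peripheral stalk, 436 CPM per kb), *VhaPPA1-1* (c'', a further ring subunit, 431 CPM per kb), *VhaAC45* (an accessory membrane protein, 414 CPM per kb), *Vha36-1* (D, in the central stalk, 383 CPM per kb) and *Vha14-1* (F, in the central stalk, 370 CPM per kb). Neighbours among these 5 overlapped in range. *VhaAC39-1* (d, which joins the stalk to the ring) was at 303 CPM per kb, *VhaM9.7-b* (e) at 233 CPM per kb and *VhaSFD* (H) at 216 CPM per kb. The lowest of the broadly used genes were *Vha100-2* (a) at 173 CPM per kb and *Vha44* (C) at 162 CPM per kb, so these genes spanned 7.16-fold from *Vha16-1* to *Vha44*. C and H are the subunits known for the joining and parting of V1 and Vo. Dividing by the length of the coding sequence instead kept *Vha16-1* in rank 1 and moved *Vha68-2* to rank 4 and *VhaM9.7-b* to rank 6. The span was then wider, from *Vha16-1* at 7473 CPM per coding kb to *Vha100-2*, the lowest broadly used gene on that scale, at 222.

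**Figure D1:**
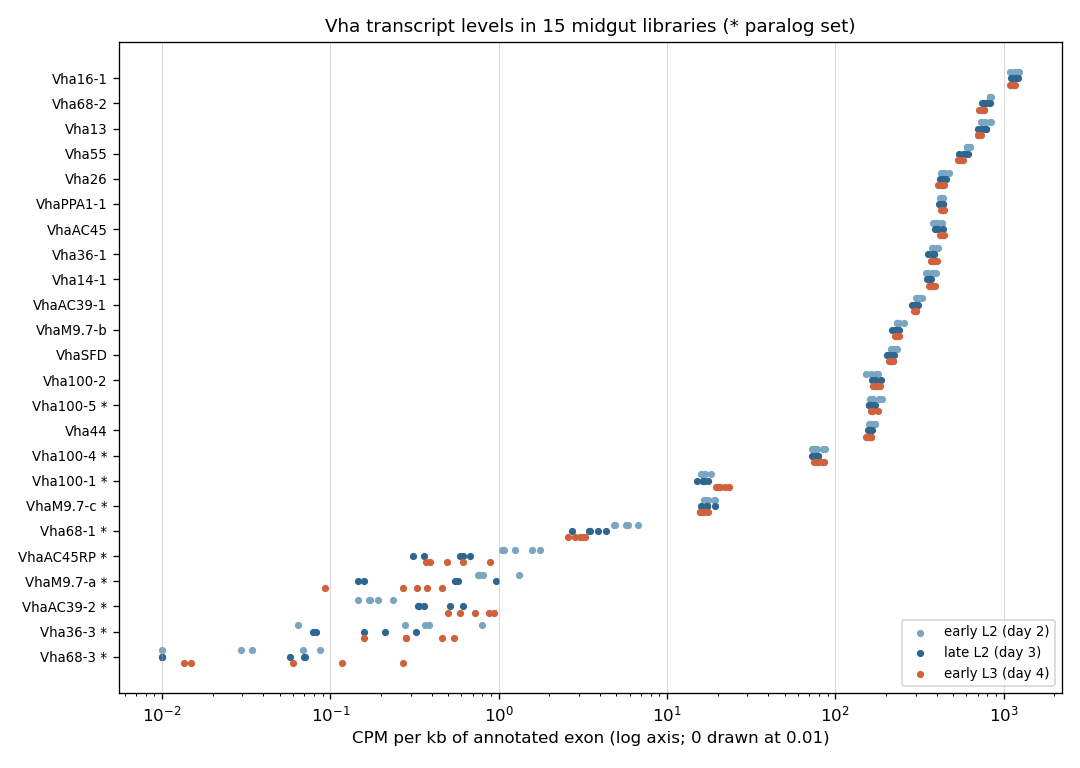
Transcript level of each Vha gene in each of the 15 libraries, in CPM per kb of annotated exon on a log axis, with 1 point per library coloured by stage. Genes are ordered by their mean. The 14 broadly used genes and *Vha100-5* have means over the 15 libraries of 162 CPM per kb or more. Of the 10 further genes (marked by an asterisk), 6 have means of 4.06 CPM per kb or less.

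Of the 8 broadly used V1 genes, 0 were called in either interval. *Vha68-2* had 2324, 2296, 2286, 2296 and 2303 CPM in early L2, 2275, 2180.3, 2147, 2048 and 2154 CPM in late L2, and 2109, 1971, 2099.7, 2041 and 2034 CPM in early L3. The late L2 values all lay below the early L2 values, and the early L3 values overlapped with those of late L2. Its log2 fold change was -0.09 (standard error 0.04) for late L2 versus early L2 and -0.08 (standard error 0.04) for early L3 versus late L2, with adjusted p of 0.117 and 0.140 from limma. *Vha55* had 1764, 1689, 1726, 1692 and 1768 CPM in early L2, 1708, 1614, 1617, 1514 and 1614 CPM in late L2, and 1560.1, 1485, 1608, 1562 and 1573 CPM in early L3. All early L3 values of *Vha55* lay below all early L2 values, while each stage overlapped with the next.

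*Vha13* showed the same arrangement at lower counts, with 676 ± 10.8 CPM in early L3 against 744 ± 38.8 CPM in early L2. For these 3 genes the log2 fold change of early L3 versus early L2 was -0.17 (*Vha68-2*, adjusted p = 0.00231), -0.15 (*Vha55*, adjusted p = 0.00559) and -0.14 (*Vha13*, adjusted p = 0.0118, all from limma), in each case under the minimum size for a call. These falls depend on the scaling. Over all settings run the values ran from -0.33 to -0.01 (*Vha68-2*), -0.16 to 0.01 (*Vha55*) and -0.17 to 0.02 (*Vha13*). Of the 14 broadly used genes, 4 had a positive value for early L3 versus early L2 in CPM. The number was 13 with TMM or median-ratio scaling and 1 with quantile normalization. In limma on CPM the other 5 broadly used V1 genes had adjusted p above the threshold in this comparison. Over early L2, late L2 and early L3, *Vha26* was at 1303 ± 53.9, 1283 ± 41.2 and 1243 ± 38.5 CPM and *Vha44*, whose exons overlap with *Hmgs* on the other strand, at 665 ± 24.8, 646 ± 15.3 and 642 ± 18.4 CPM. *VhaSFD* was at 626 ± 20.5, 599 ± 19.9 and 610.4 ± 13.3 CPM. The central stalk genes were *Vha36-1* at 415 ± 15.5, 399.8 ± 14.1 and 407 ± 13.2 CPM, and *Vha14-1* at 244 ± 13.3, 239.7 ± 4.88 and 248 ± 7.87 CPM.

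The broadly used Vo genes were as level. *Vha16-1* had 3803, 3733, 3563, 3360.4 and 3660.0 CPM in early L2, 3764, 3642, 3409, 3466 and 3659 CPM in late L2, and 3612, 3362, 3530.4, 3414 and 3491 CPM in early L3, and the 3 stages overlapped. *VhaPPA1-1* varied least, with a highest value 1.07 times the lowest over the 15 libraries, and stood at 579.7 ± 9.25, 579.9 ± 13.2 and 587 ± 9.89 CPM at early L2, late L2 and early L3. *VhaAC39-1* was at 559 ± 20.4, 537 ± 17.7 and 535 ± 4.17 CPM and *VhaM9.7-b* at 291 ± 12.4, 279 ± 9.19 and 282 ± 5.50 CPM at the same stages. In CPM *VhaAC45* was the only broadly used gene past the adjusted p threshold in the upward direction for early L3 versus early L2. It had 872 ± 20.03 against 807 ± 40.8 CPM (log2 fold change 0.11, standard error 0.04, limma adjusted p = 0.0355), a size under the minimum for a call. *ATP6AP2*, a second accessory subunit whose older symbol is *VhaM8.9*, falls outside the symbol rule and was at 568 ± 17.7, 552 ± 14.0 and 569.9 ± 6.39 CPM at early L2, late L2 and early L3.

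Taken over the set, 0 of the 14 broadly used genes were called by limma in any of the comparisons, where 9.89% of all tested entries were called for late L2 versus early L2, 25.1% for early L3 versus late L2 and 34.2% for early L3 versus early L2. At an unadjusted p under 0.05 in limma on CPM there were 2 for late L2 versus early L2 (*Vha55* and *Vha68-2*) and 0 for early L3 versus late L2. For early L3 versus early L2 there were 4 (*Vha13*, *Vha55*, *Vha68-2* and *VhaAC45*). At the minimum size edgeR and DESeq2 on recovered reads also called 0. Into early L3, adjusted p was under 0.05 in some of the settings run for *VhaPPA1-1*, *VhaAC45*, *VhaSFD* and *Vha36-1*, among others. The log2 fold changes of these 4 genes were at most 0.24 in any setting. The median log2 fold change of the 14 genes was -0.05 for late L2 versus early L2, where that of all 9787 tested entries was 0.01. For early L3 versus late L2 it was 0.00, where that of all entries was -0.11. The 95% confidence intervals of all 14 lay within 0.25 of 0 on the log2 scale in both intervals. The same held for 24.5% of all tested entries during L2 and 15.02% into early L3, and for 37.2% and 23.7% of the 1391 entries with a mean of at least 100 CPM. The direction into early L3 depends on the scaling: 7 of the 14 genes had a positive value in CPM, all 14 after median-ratio scaling (median 0.15) or TMM scaling (median 0.14), and 2 after quantile normalization (median -0.06). With CPM 25.7% of all called entries rose into early L3, against 43.3%, 41.6% and 47.7% with these 3 scalings.

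**Figure D2:**
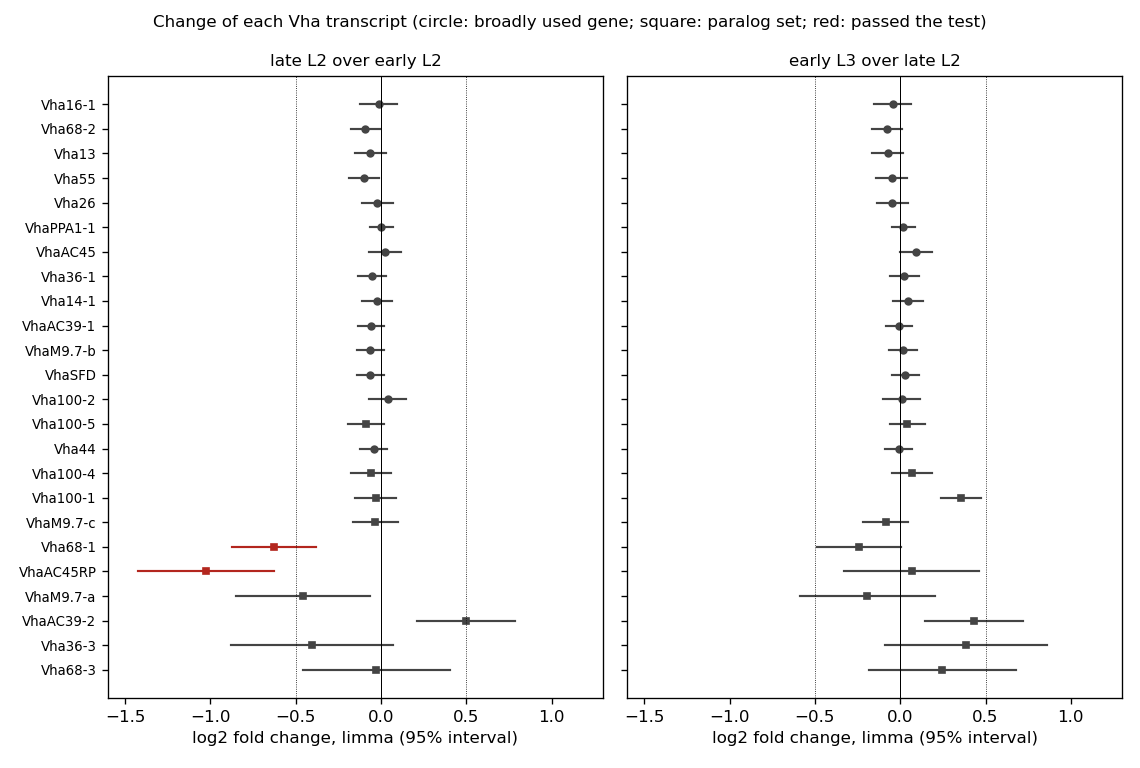
Log2 fold change of each Vha gene from limma, for late L2 over early L2 (left) and early L3 over late L2 (right), with 95% confidence intervals, n = 5 libraries per stage. Circles are broadly used genes and squares the further genes, in the order of level per kb, red marks a call and dotted lines the minimum size of 0.5. The 14 circles lie between -0.10 and 0.09 in both panels, and the 2 called genes are *Vha68-1* at -0.63 and *VhaAC45RP* at -1.03 in the left panel.

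The 8 V1 genes summed to 0.803 ± 0.0184, 0.765 ± 0.0221 and 0.743 ± 0.0153% of reads at early L2, late L2 and early L3, and the 6 Vo genes to 0.641 ± 0.0211, 0.636 ± 0.0211 and 0.632 ± 0.0127% of reads. The quotient of V1 over Vo, which does not depend on library scaling, was 1.26, 1.22, 1.26, 1.29 and 1.24 in early L2, 1.19, 1.21, 1.21, 1.20 and 1.20 in late L2, and 1.15, 1.17, 1.20, 1.19 and 1.17 in early L3. All late L2 quotients lay below all early L2 quotients, and those of early L3 overlapped with late L2. The nearest libraries of early and late L2 were close (1.21 in late L2 against 1.22 in early L2), and the difference was not tested. The means were 1.25 ± 0.0250, 1.20 ± 0.00698 and 1.18 ± 0.0193 at early L2, late L2 and early L3.

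**Figure D3:**
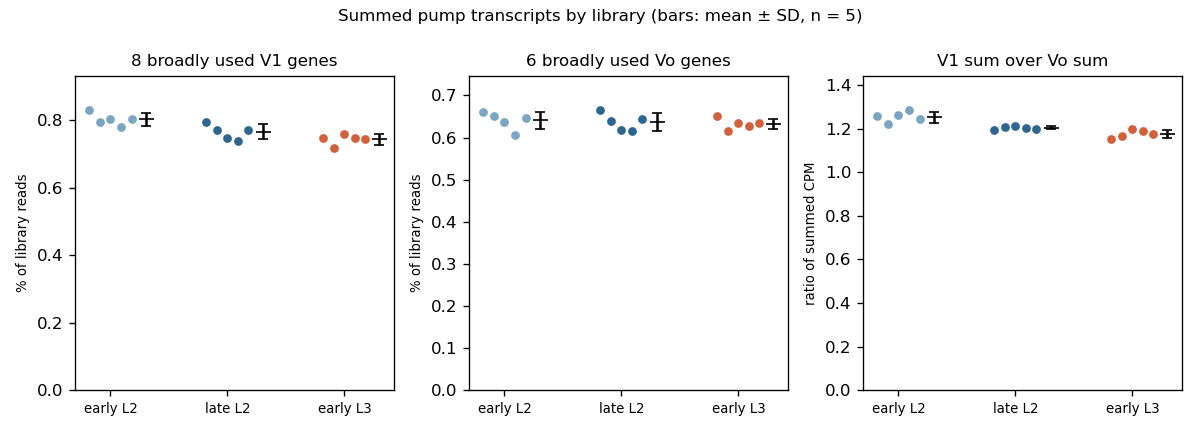
Percent of each library's reads in the 8 broadly used V1 genes (left) and the 6 broadly used Vo genes (middle), and the quotient of these sums (right), by stage. Points are libraries and bars the mean ± SD (n = 5). The V1 sum averages 0.803% in early L2 and 0.743% in early L3, the Vo sum 0.641% and 0.632%, and all quotients of late L2 lie below those of early L2.

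Subunit a, the fixed partner of the ring in the proton path, was, of the subunits with more than 1 gene here, the one whose transcripts were shared most evenly. Of the level per kb summed over its 4 genes, *Vha100-2* held 38.6 ± 2.14, 40.5 ± 0.944 and 39.4 ± 1.52% at early L2, late L2 and early L3, and *Vha100-5* held 39.4 ± 2.30, 37.9 ± 0.552 and 37.7 ± 1.15%. *Vha100-4*, the form linked to acid secretion in the adult midgut, held 18.1 ± 1.48, 17.8 ± 0.987 and 18.1 ± 1.14%, and *Vha100-1*, known from synaptic vesicles of neurons, held 3.83 ± 0.273, 3.83 ± 0.276 and 4.76 ± 0.369%. In the whole midgut *Vha100-5* thus stood at the level of the broadly used *Vha100-2* (167 against 173 CPM per kb, with overlapping ranges). Whether it is restricted to some tissues cannot be read from a single organ. For the other subunits with more than 1 listed gene, the broadly used gene held most of the level per kb in every library. Its share was 99.2 to 99.6% for *Vha68-2* and 92.1 to 93.6% for *VhaM9.7-b*. *Vha36-1*, *VhaAC39-1* and *VhaAC45* held at least 99.5%.

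*Vha100-4* lies on chromosome 3R at 18386841 to 18389805, on the minus strand, 517 bases from *Vha100-2* at 18390323 to 18399169 on the same strand (BDGP6.54 annotation). It had 213, 198, 237, 206 and 230.2 CPM in early L2, 199, 216, 216, 207 and 201 CPM in late L2, and 202, 228, 235, 215 and 211 CPM in early L3. The 3 stages overlapped, with means of 217 ± 16.3, 208 ± 8.05 and 218 ± 13.0 CPM. Its log2 fold change was -0.06 for late L2 versus early L2 (95% confidence interval -0.18 to 0.06) and 0.07 for early L3 versus late L2 (95% confidence interval -0.05 to 0.19). The value into early L3 depends on the scaling. Over all settings run it ran from 0.04 to 0.22, with an adjusted p under 0.05 in some of them and a call in 0. *Vha100-2* had 563, 576, 525, 491 and 573 CPM in early L2, 604, 536, 557, 547 and 555 CPM in late L2, and 596, 541, 559, 547 and 571 CPM in early L3. The log2 ratio of *Vha100-4* to *Vha100-2* within a library differed by -0.10 for late L2 versus early L2 (exact 2-sided permutation test, p = 0.294, adjusted p = 0.440 over 6 such tests) and by 0.06 for early L3 versus late L2 (exact test, p = 0.452, adjusted p = 0.540).

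Beside *Vha100-4*, the regional transcription factors fixed as markers (*lab*, *dve*, *Ptx1* and *cad*, of which *lab* marks the acid-secreting region) summed to 163 to 175 CPM in early L2, 150.1 to 164 CPM in late L2 and 124 to 139 CPM in early L3. All 4 were lower in early L3 than in early L2 (log2 fold changes of -0.36 to -0.26, limma adjusted p between 8.67e-06 and 0.00128), and *dve*, *Ptx1* and *cad* had an adjusted p under 0.05 for early L3 versus late L2 too. These sizes were under the minimum, so 0 of the 4 were called, where 25.1% of all entries were called into early L3 and 34.2% for early L3 versus early L2. The sizes also depend on the scaling. For early L3 versus early L2 the median of the 4 was -0.34 in CPM, -0.19 with TMM or median-ratio scaling and -0.22 with quantile normalization. Into early L3 it was -0.23 in CPM, -0.09 with TMM, -0.08 with median-ratio scaling and -0.10 with quantile normalization. The part of these 4 factors in the level of *Vha100-4* was not tested. *Vha100-5* had 553, 479, 470.0, 530.4 and 489.6 CPM in early L2, 500.1, 469, 461, 464 and 474 CPM in late L2, and 483, 472, 479, 521 and 484 CPM in early L3. These ranges overlapped, and its log2 fold changes were -0.09 (95% confidence interval -0.19 to 0.01) for late L2 versus early L2 and 0.04 (-0.06 to 0.15) for early L3 versus late L2. Over all settings run the value into early L3 ran from -0.06 to 0.19, with an adjusted p under 0.05 in some of them and a call in 0. Exons of *Vha100-4*, *Vha100-5* and *Vha100-1* overlap with a gene on the other strand (*cona*, *asRNA:CR44144* and *Alg13*). The kit was stranded, but the strand setting of the counting is not given in the sources used here.

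*Vha100-1* was the Vha gene with the clearest step into early L3. It had 53.7, 55.5, 52.5, 60.1 and 54.3 CPM in early L2, 49.6, 53.9, 57.9, 53.9 and 54.6 CPM in late L2, and 64.2, 76.5, 67.5, 72.4 and 65.8 CPM in early L3. All 5 early L3 values lay above the values of both earlier stages, which overlapped with each other. It was the only 1 of the 24 genes whose late L2 and early L3 values did not overlap, where 40.0% of all tested entries did not overlap. The means were 69.3 ± 5.05 CPM in early L3 against 54.0 ± 2.97 CPM in late L2 (log2 fold change 0.36, standard error 0.06, adjusted p = 6.95e-05 from limma), a change under the minimum size. The log2 ratio of *Vha100-1* to *Vha100-2* was higher in early L3 than in late L2 by 0.35, without overlap (exact 2-sided permutation test, p = 0.00794, the smallest that the arrangements of 5 against 5 libraries allow, adjusted p = 0.0238), and differed by -0.07 for late L2 versus early L2 (exact test, p = 0.540). Neuron markers summed to 8.10 to 19.0 CPM in early L3 against 8.36 to 13.0 CPM in late L2, and 0 of the 4 were called between these stages in limma, while their part in the result was not tested.

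The change of *Vha100-1* into early L3 exceeded its change during L2 by 0.39 on the log2 scale (limma adjusted p = 0.00589), again under the minimum size. With no minimum size 2 of the 24 genes, *Vha100-1* and *VhaAC45RP*, passed in this difference, where 36.3% of all entries did. After median-ratio scaling and in DESeq2 the step into early L3 reached the minimum and was called. All values of *Vha100-1* relative to other subunit a genes come from the same libraries, so its larger share in early L3 is the same measurement on another scale.

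**Figure D4:**
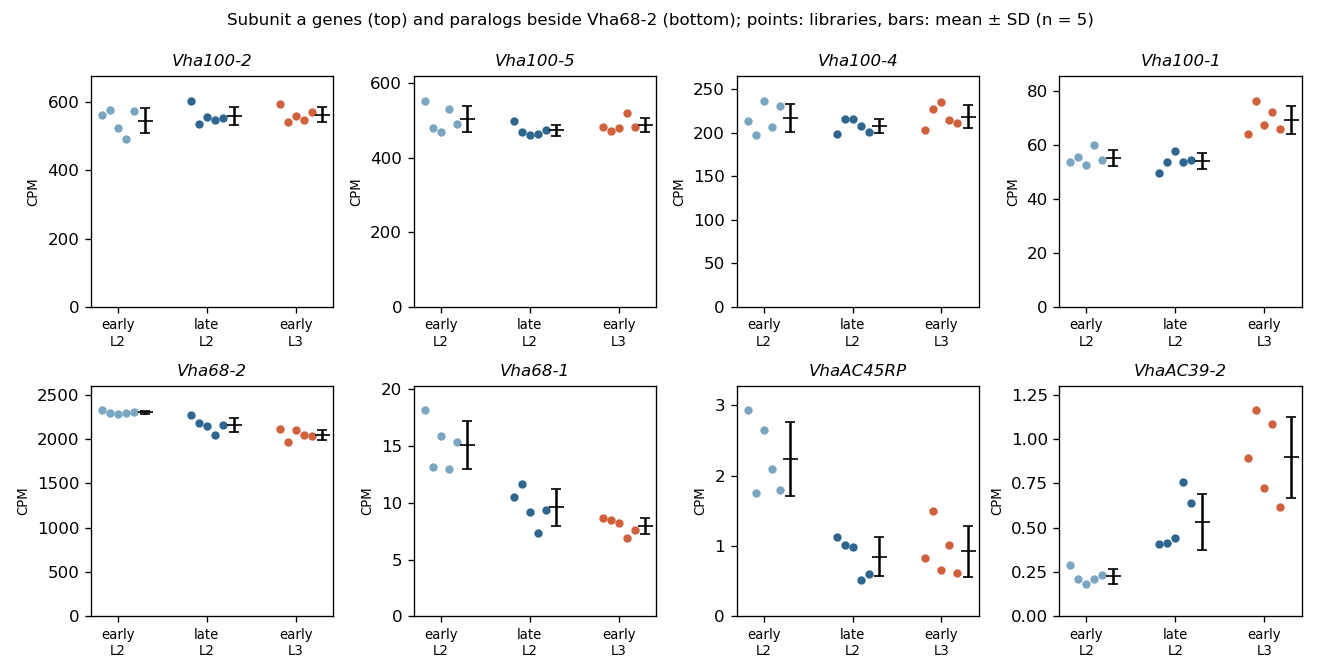
CPM of the 4 subunit a genes (top row) and of *Vha68-2*, *Vha68-1*, *VhaAC45RP* and *VhaAC39-2* (bottom row) in each library by stage, with axes that start at 0. Points are libraries and bars the mean ± SD (n = 5). *Vha100-1* lies at 64.2 to 76.5 CPM in early L3 and at most at 60.1 CPM before it, *Vha68-1* and *VhaAC45RP* are lower in late L2 than in early L2, and *VhaAC39-2* has a higher mean at each later stage.

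Between early and late L2, 2 of the 24 Vha genes fell and 0 rose, where 9.89% of all tested entries were called (6.51% fell and 3.38% rose). With no minimum size the count was 3, where 26.5% of all entries passed. The 2 were *Vha68-1*, an additional gene for the catalytic A subunit, and *VhaAC45RP*, a relative of the accessory subunit gene *VhaAC45*. *Vha68-1* had 10.5, 11.7, 9.18, 7.33 and 9.31 CPM in late L2, against 18.1, 13.1, 15.8, 13.0 and 15.3 CPM in early L2. The stages did not overlap (log2 fold change -0.63, standard error 0.12, adjusted p = 0.000968 from limma). *VhaAC45RP* had 1.13, 1.02, 0.986, 0.516 and 0.602 CPM in late L2, against 2.93, 1.75, 2.65, 2.10 and 1.79 CPM in early L2. These values did not overlap either (log2 fold change -1.03, standard error 0.19, adjusted p = 0.000882), and they rest on 15 to 33 reads per late L2 library and 42 to 88 per early L2 library. With a pseudocount of 4 CPM neither fall reached the minimum size (-0.49 for *Vha68-1* and -0.36 for *VhaAC45RP*).

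In the count of genes whose values did not overlap, 4 of the 24 stood apart between early and late L2, where 18.4% of all entries did. These were *Vha68-1*, *Vha68-2* and *VhaAC45RP*, lower in late L2, and *VhaAC39-2*, higher in late L2. The log2 ratio of *Vha68-1* to *Vha68-2*, the minor to the major A subunit gene, was lower in late L2 than in early L2 (difference -0.54, exact 2-sided permutation test, p = 0.00794, adjusted p = 0.0238) and differed by -0.17 for early L3 versus late L2 (exact test, p = 0.159, adjusted p = 0.317). *Vha68-2* stood 194-fold above *Vha68-1* in CPM per kb. How reads that match both genes were assigned is not given in the sources used here, so the level of *Vha68-1* is uncertain. The neuron markers *brp* and *Syt1*, of the active zone and of synaptic vesicles, also fell between these stages, with a summed list of 8.36 to 13.0 CPM in late L2 against 14.9 to 19.4 CPM in early L2, and all 7 muscle markers had lower values in late L2 (median log2 fold change -0.32), of which 1, *Zasp52*, fell. The part of these cells in the falls of *Vha68-1* and *VhaAC45RP* was not tested.

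Into early L3, 0 of the 24 Vha genes were called in limma, where 25.1% of all tested entries were (6.45% rose and 18.7% fell). With no minimum size, and also at an unadjusted p under 0.05, there were 2 (54.0% of all entries passed with no minimum size), *Vha100-1* and *VhaAC39-2*. At the minimum size edgeR on recovered reads called 1 and DESeq2 called 2. *Vha68-1* had 8.68, 8.44, 8.18, 6.89 and 7.64 CPM in early L3, which overlapped with late L2 (log2 fold change -0.24, limma adjusted p = 0.0895). *VhaAC45RP* had 0.825, 1.49, 0.654, 1.02 and 0.619 CPM in early L3, within and above the range of late L2 (log2 fold change 0.07, limma adjusted p = 0.784). The change of *VhaAC45RP* into early L3 exceeded its change during L2 by 1.09 (standard error 0.32, adjusted p = 0.0153 from limma). It was the 1 Vha gene called in that difference, where 24.9% of all entries were (6.50% in its direction and 18.4% in the other), and the call was lost when replicate 4 of late L2 and replicate 1 of early L3 were left out (0.92, adjusted p = 0.0557).

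*VhaAC39-2*, a second gene for subunit d, had 0.289, 0.208, 0.181, 0.213 and 0.236 CPM in early L2, 0.410, 0.416, 0.442, 0.757 and 0.637 CPM in late L2, and 0.891, 1.16, 0.727, 1.08 and 0.619 CPM in early L3. The late L2 values lay above all early L2 values, and the early L3 values overlapped with late L2. These levels rest on 5 to 8 reads per library at early L2, 11 to 22 at late L2 and 20 to 35 at early L3. Its log2 fold change was 0.50 for late L2 versus early L2 (0.498 before rounding, just under the minimum, limma adjusted p = 0.0126) and 0.43 for early L3 versus late L2 (limma adjusted p = 0.0130). The call depended on the pseudocount, the tool and single libraries. With the pseudocount of 0.5 CPM, which is near its level, both values lay just under the minimum. With a pseudocount of 0.1 CPM they were 0.93 and 0.66, in edgeR 1.23 and 0.75 and in DESeq2 1.25 and 0.90 (late L2 versus early L2 first, then early L3 versus late L2), and the gene was called as risen in both intervals by each of these. With all other settings as before, it was also called during L2 without replicate 1 or 5 of early L2 or replicate 1, 2 or 3 of late L2 (0.50 to 0.54), and into early L3 without late L2 replicate 4 or early L3 replicate 5 (0.51 in each case). Quantile normalization gave a call in both intervals, and TMM and median-ratio scaling gave one into early L3 only. Testis and germline markers, of which 3 of 9 had an entry, summed to at most 1.24 CPM in any library. *VhaAC39-2* itself was at most at 1.16 CPM, so this low sum does not exclude such cells as a source. Over early L2, late L2 and early L3, *sa* was at 0.128 ± 0.0910, 0.194 ± 0.125 and 0.317 ± 0.171 CPM. *vas* was at 0.393 ± 0.169, 0.414 ± 0.163 and 0.422 ± 0.179 CPM, and neither was called. *bam* stayed below the filter, with a lower mean at each later stage. The part of these cells in the values of *VhaAC39-2* was not tested.

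Over both intervals together, early L3 versus early L2, 1 Vha gene rose and 3 fell, where 34.2% of all entries were called (9.86% rose and 24.3% fell). With no minimum size 9 of the 24 passed, where 65.0% of all entries did. *VhaAC39-2* rose (0.897 ± 0.230 against 0.226 ± 0.0407 CPM, log2 fold change 0.93, standard error 0.13, limma adjusted p = 2.13e-05). *Vha68-1* fell (7.96 ± 0.714 against 15.1 ± 2.13 CPM, log2 fold change -0.87, standard error 0.12, limma adjusted p = 8.8e-06), as did *VhaAC45RP* (0.923 ± 0.357 against 2.24 ± 0.526 CPM, -0.96, limma adjusted p = 0.000333). *VhaM9.7-a*, a minor gene for subunit e, fell as well, with 0.0660, 0.233, 0.327, 0.191 and 0.265 CPM in early L3 against 0.940, 0.542, 0.542, 0.533 and 0.574 CPM in early L2 (log2 fold change -0.65, limma adjusted p = 0.00597). Its early L3 values came from 2 to 9 reads per library. They all lay under the filter of 0.5 CPM, which *VhaM9.7-a* passed through early L2 and late L2 replicate 1. *VhaAC39-2* passed the filter through late L2 and early L3 only, with at most 0.289 CPM in early L2. Both genes were thus tested because of stages where they were high. With no filter on low values both were still called. The comparison of early L3 with early L2 shares its libraries with the other intervals and is not a separate measurement. The values of early L3 and early L2 did not overlap for 8 of the 24 genes, 2 higher and 6 lower in early L3, where 48.4% of all entries did not overlap. With a pseudocount of 4 CPM, which weighs low transcripts less, *Vha68-1* alone remained called here (-0.67), and with quantile normalization the call of *VhaM9.7-a* was lost (-0.41, limma adjusted p = 0.0815). Over the same stages 3 of 4 neuron markers fell (1 with each other scaling) and 4 of 7 muscle markers fell (4 with quantile normalization, 0 with TMM or median-ratio scaling), and their part in the changes of the Vha genes was not tested.

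The remaining further genes were not called. *VhaM9.7-c*, also for subunit e, was at 15.1 ± 1.08, 14.8 ± 1.03 and 13.9 ± 0.645 CPM at early L2, late L2 and early L3, and *VhaM9.7-b* stood 13.6-fold above it in CPM per kb. *Vha36-3*, a second gene for subunit D, ranged from 0.0834 to 1.02 CPM and *Vha68-3*, a further gene for subunit A, from 0 to 0.660 CPM. *Vha68-3* passed the filter on low values only through early L3 replicate 1, with 20 of the 65 reads it had in all. It was at 0 in early L2 replicate 3 and in late L2 replicates 1 and 2, where a count of 0 allows 0.0904, 0.102 and 0.113 CPM (3 reads, counting error only). *Vha68-3* lies on chromosome 2L, 178 bases from *Vha68-2*.

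Genes that work with the pump were described through a list of 14 regulators and ion transporters, all with an entry. During L2, 0 rose and 1 fell (median log2 fold change 0.02), where 6.51% of all entries fell. For early L3 versus late L2 there were again 0 that rose and 1 that fell (median -0.04 in CPM, but 0.09 with TMM and 0.11 with median-ratio scaling), where 18.7% of all entries fell. The gene that fell in both intervals was *CAH2*, a carbonic anhydrase, which makes protons and bicarbonate from carbon dioxide. It was at 97.8 ± 18.6, 53.8 ± 10.6 and 24.4 ± 5.32 CPM at early L2, late L2 and early L3 (log2 fold change -1.13 for early L3 versus late L2, limma adjusted p = 2.54e-05). *Nhe2*, a sodium-proton exchanger, was at 102 ± 6.72, 72.9 ± 3.08 and 54.6 ± 3.50 CPM (-0.41 for early L3 versus late L2, under the minimum), and *Nhe1*, of the same family, at 55.4 ± 2.87, 56.6 ± 2.74 and 68.0 ± 3.76 CPM (0.26). Over both intervals together, early L3 versus early L2, 0 of the list rose and 3 fell, where 24.3% of all entries fell. *CAH2* (-1.99) and *Nhe2* (-0.90) were among the 3. With each other scaling 2 fell.

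Some genes of the lysosome, an organelle that the pump acidifies, rose in each interval, while in CPM most of the list was not called in either interval alone. Of 18 listed lysosomal genes with an entry, 4 rose and 0 fell during L2 (median 0.19), where 3.38% of all entries rose. For early L3 versus late L2 the counts were 6 that rose and 0 that fell (median 0.39), where 6.45% of all entries rose. With the other scalings 8 to 11 rose into early L3. Over both intervals together, early L3 versus early L2, 10 rose and 0 fell (median 0.52), where 9.86% of all entries rose. With the other scalings 9 to 13 rose in that comparison. *Hexo1*, a hexosaminidase, had 385 ± 26.8 CPM in early L3 against 216 ± 13.3 CPM in late L2 (log2 fold change 0.84, limma adjusted p = 1.36e-07). *CtsB*, a cathepsin protease, had 370.3 ± 65.7 against 226 ± 13.9 CPM (0.70), and *Npc1a*, a sterol transporter, 42.4 ± 7.78 against 25.8 ± 1.68 CPM (0.69) at the same stages. Whether the lysosomal genes and the pump genes differ as groups was not tested.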

How the data were processed

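RNA of pooled *w1118* larval midguts was sequenced after a stranded poly-A library preparation, with 15 libraries from 3 stages (5 biological replicates each). The authors deposited CPM per gene, and the submitters' processing notes name STAR 2.7.10a and Salmon 1.5.2, Trim Galore 0.6.7, MultiQC 1.11, FastQC, Picard, DESeq2 and the BDGP6 build. Their roles, the annotation release, the strand setting and the treatment of reads matching several genes are not given in the sources used here. A second deposited table of the authors' own comparisons (log2 fold changes and adjusted p-values) was not used.

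The CPM steps gave whole reads for 100% of the 166854 values above 0 (tolerance 0.001 reads), with totals of 23981806 to 33902298 reads per library. Entries that reached 0.5 CPM in 1 or more libraries (9787, all 24 Vha genes among them) were tested on log2(CPM + 0.5) with limma 3.58.1 in R 4.3.3, with a trended prior over all 15 libraries and no covariates, and p-values were adjusted over all tested entries by the Benjamini-Hochberg method. Calls required an adjusted p under 0.05 and a log2 fold change not smaller than 0.5. The procedure was checked on simulated data. Ratios of paralogs within a library were compared by exact 2-sided permutation tests, adjusted over 6 tests.

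Symbols and exon lengths came from the Ensembl BDGP6 annotation, in which 23 Vha genes matched by identifier and *Vha44* by symbol. Opposite-strand overlaps were read from it. All Vha genes were accounted for, those with a mean of at least 5 CPM by library or stage and the others by their range or by library where they were called or close to a call. Of the regulator and lysosome lists the 3 genes with the smallest adjusted p for early L3 versus late L2 were named. The genes and lists were chosen with earlier results of these data known. Alternatives were other pseudocounts, filters, scalings (median-ratio, TMM, quantile), minimum fold changes, a limma fit without trend, a replicate block, single libraries left out, and tests on the recovered reads. On those, edgeR 4.0.16 called 364 entries up and 657 down during L2 and 676 up and 1986 down into early L3, and DESeq2 1.42.0 called 396 and 710, and 1079 and 1406. Intervals and limits from counts cover counting error only. No sequences were analysed here.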

Additional observations from a re-analysis of the deposited data

Results flagged for a closer look

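Among the 72 groups of 5 libraries (24 Vha genes at 3 stages), 5 held a library far from the other 4, where chance gives about 1 in 20 groups. *Vha100-5* was highest in early L3 replicate 4 (521 CPM) and *Vha14-1* lowest in late L2 replicate 3 (231 CPM). Early L2 replicate 1 was highest for *VhaM9.7-b* (312 CPM) and for *VhaM9.7-a* (0.940 CPM). *VhaPPA1-1* was lowest in early L3 replicate 2 (570.0 CPM).

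The change into early L3 differed from the change during L2 for *Vha100-1*, by 0.39 on the log2 scale (limma adjusted p = 0.00589), with early L3 above the earlier stages in 5 of 5 libraries. It also differed for *VhaAC45RP*, by 1.09 (limma adjusted p = 0.0153), where 5 of 5 late L2 libraries lay below all early L2 libraries and early L3 overlapped with late L2.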

How the results depend on the processing

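No alternative that was run reversed the direction of a reported value that had been called. During L2 the 2 calls became 0 with a pseudocount of 4 CPM (*Vha68-1* -0.49, *VhaAC45RP* -0.36) and 1 with a minimum log2 fold change of 1, and *VhaAC39-2* made them 3 with a pseudocount of 0.1 CPM, quantile normalization, edgeR, DESeq2 or no minimum. They ranged from 2 to 4 with single libraries left out, and the 4, without late L2 replicate 1, added *VhaAC39-2* and *VhaM9.7-a*. Into early L3 the 0 calls became 1 with a pseudocount of 0.1 CPM, TMM scaling or edgeR, and 2 with median-ratio scaling, quantile normalization, DESeq2 or no minimum fold change. They were 0 to 1 with single libraries left out, and 1 when replicate 4 of late L2 and replicate 1 of early L3 were both left out, an alternative chosen after seeing the data. *VhaAC39-2* was among the called genes in each of these, *Vha100-1* with median-ratio scaling (0.50), DESeq2 (0.51) and no minimum, and *Vha36-3* with quantile normalization (0.55). For early L3 versus early L2 the 4 calls became 1 with a pseudocount of 4 CPM, 2 with a filter of 1 CPM in 5 libraries, 9 with no minimum fold change, 0 with a minimum of 1 and 3 with quantile normalization, where *VhaM9.7-a* was lost. For the difference of the changes the 1 call became 0 with a pseudocount of 4 CPM (*VhaAC45RP* 0.38), 3 with median-ratio scaling or DESeq2, and 2 with quantile normalization or no minimum fold change. It was 1 to 2 with single libraries left out (*Vha36-3* was added without early L2 replicate 2) and 0 with both of those libraries left out. The lower counts with the filter of 1 CPM come from its construction, since 20 of the 24 Vha genes were then tested, and the cause of the other shifts was not tested. The ratio of *Vha68-1* to *Vha68-2* for early L3 versus late L2 ran from -0.24 to -0.10 with single libraries left out (exact test, adjusted p = 0.0476 without late L2 replicate 4). Equal replicate numbers did not pair the libraries in most cases. Over 15 pairs of libraries with the same number, correlations ran from -0.18 to 0.21, with 4 of 15 over 0.1. In 4 of 15 pairs the library of the same number was the best match in the other stage. Each pair of replicate 4 was among these (correlations of 0.16, 0.10 and 0.21). A replicate block left the counts of 2, 0, 4 and 1 calls as they were. In the paired exact test the ratio of *Vha100-1* to *Vha100-2* into early L3 (0.35) and that of *Vha68-1* to *Vha68-2* during L2 (-0.54) each had an adjusted p of 0.0938, and 0.0625 is the smallest raw p this pairing allows. Depth limits the lowest genes: *Vha68-3*, *VhaM9.7-a*, *Vha36-3* and *VhaAC39-2* had 65, 171, 173 and 245 reads in all 15 libraries.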
